A study of Mnemiopsis leidyi with 50 samples.

Results

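Embryogenesis of *Mnemiopsis leidyi* was compared between 2 neighbouring windows, with single embryos at 4.5, 5 and 6 h post fertilization (hpf) set against single embryos at 6.5, 7, 7.5 and 8 hpf. These were chosen by their labelled hour and make up 7 of the 50 embryos of the time course. All were whole embryos of this ctenophore (a comb jelly) with no treatment and no selection of cells, and each time point held 1 embryo. Whether the embryos came from separate spawnings is not in the labels, so the spread within a group holds differences between embryos, technical differences and change with time. The embryo at 5.5 hpf had only 138478 counts and was kept out of both groups. RNA was measured with CEL-Seq, in which the RNA of an embryo is barcoded and read at its 3′ end. A value is the number of reads assigned to a protein model (ML2.2), scaled to the embryo's total as CPM.

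Ctenophore embryos cleave in a fixed pattern and then gastrulate, and transcripts loaded into the egg by the mother are replaced by transcripts of the embryo itself. The tentacles form later from thickened epithelium on both sides of the embryo, and their epidermis is filled with colloblasts, adhesive cells that catch prey and occur only in ctenophores. The study compared ctenophore species with and without these structures to name colloblast candidate genes, which were missing from species without colloblasts, and tentacle candidate genes, which were missing from species without tentacles. Of both lists the members with an InterProScan result in the study's tables were used here (161 colloblast and 144 tentacle candidates), which is not the whole of either list, together with 5 transcription factors and the models with hits to adhesive proteins or toxins. The question here was which models changed between these windows, both of which come before the tentacle epithelium is visible in the study's description.

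The 7 embryos held 507616 to 953736 counts each and 7739 to 9175 models with a count. One count was worth 1.05 to 1.97 CPM, so levels of a few CPM rest on a few reads. Of the 16548 models, 11563 had a count in any of the 7 embryos and 5008 passed the filter on low counts and were tested with edgeR's quasi-likelihood test. After thinning to 507616 counts per embryo, 7347, 7424 and 8003 models were detected at 4.5, 5 and 6 hpf and 8065, 7806, 8385 and 8082 at 6.5, 7, 7.5 and 8 hpf. The groups overlapped through the embryos at 6 and 7 hpf, and the means of 7591 ± 359 (SD, n = 3) and 8085 ± 237 (SD, n = 4) were not separated by an exact permutation test (two-sided p = 0.114, adjusted p = 0.137 over 6 comparisons; 0.0286 is the smallest p that 3 against 4 embryos can give). The share of reads that were classed as ambiguous between models was 3.66–3.84% in the earlier and 4.18–4.54% in the later embryos, with no overlap (exact permutation p = 0.0286, adjusted p = 0.0857). The share of reads that were not aligned was 47.3–48.2% and then 45.8–46.6%, also with no overlap (exact permutation p = 0.0286, adjusted p = 0.0857), and the share counted was 31.5–32.1% and then 32.6–33.8% (exact permutation p = 0.0571, adjusted p = 0.114). The part of these shares in the results below was not tested.

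Between the windows 166 models rose and 43 fell at an adjusted p under 0.05, 3.31% and 0.859% of the models tested. The risers had a median log2 fold change of 3.20, and 137 of the 166 rose at least 4-fold. The fallers changed less, with a median log2 fold change of −1.81 and 14 of 43 at least 4-fold lower. The median over all tested models was 0.01. In the plot of fold change against level, the risers reach down to about the lowest levels tested and most of the abundant models lie close to 0.

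**Figure D1:**
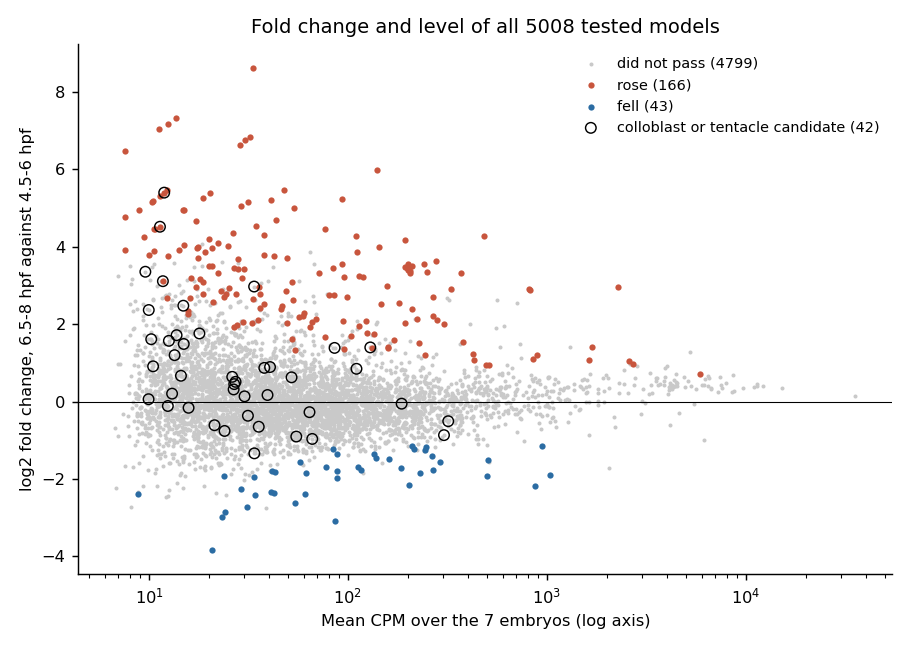
Each point is 1 of the 5008 tested protein models, with its mean CPM over the 7 embryos on the x axis (log scale) and the log2 fold change of 6.5–8 hpf against 4.5–6 hpf on the y axis. Colours mark 166 risen and 43 fallen models, and rings mark the 42 tested colloblast and tentacle candidates with an InterProScan result, 3 of which rose.

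All 4 later embryos were above all 3 earlier ones in 160 of the 166 risers, and all 4 were below in each of the 43 fallers. Over all tested models 7.69% lay entirely above and 15.3% entirely below. These counts describe the models that the test called and support nothing further. Scaling by the library total alone in place of TMM factors shifted the median of all models to −0.19 on the log2 scale and changed the split of calls from 166 risen and 43 fallen to 108 and 89. The later embryos had lower TMM factors (0.86–0.98) than the earlier ones (1.01–1.14), and their 100 most abundant models took 46.1–54.1% of the thinned counts against 43.4–48.3% (exact permutation p = 0.114).

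The number of calls depended on single embryos. Without the embryo at 5 hpf 2 models rose and 0 fell in the same edgeR test (490 and 267 at an unadjusted p under 0.05), and without the embryo at 4.5 hpf 30 rose and 2 fell. Without the embryo at 6 hpf 486 rose and 216 fell. Among the later embryos, leaving out 8 hpf gave 39 risen and 1 fallen, leaving out 7 hpf gave 77 and 9, leaving out 7.5 hpf gave 90 and 22, and leaving out 6.5 hpf gave 165 and 38.

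The embryo at 6 hpf stood between the groups. In 130 of the 166 risers its CPM was already above both 4.5 and 5 hpf, and in 37 of the 43 fallers it was already below both. For the risers the largest step on a log2(CPM + 1) scale came into 6.5 hpf in 70 models and into 6 hpf in 57, against 12 into 5 hpf, 16 into 7 hpf, 8 into 7.5 hpf and 3 into 8 hpf. The steps of the fallers were spread more evenly, with 9 into 6 hpf, 16 into 6.5 hpf, 6 into 7 hpf, 3 into 7.5 hpf and 9 into 8 hpf. The called models were chosen by a split between 6 and 6.5 hpf, which favours a largest step there. The step into 6 hpf also skips 5.5 hpf and spans more time than the others. These numbers therefore do not place the change in time. The embryo at 5.5 hpf, which was not in the main test, had a CPM nearer to the mean of the earlier group in 145 of the 166 risers and in 28 of the 43 fallers. One count there was worth 7.22 CPM, so a count of 0 lay nearer to the earlier mean in the risers whatever the true level. These numbers do not show which group that embryo resembled.

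**Figure D2:**
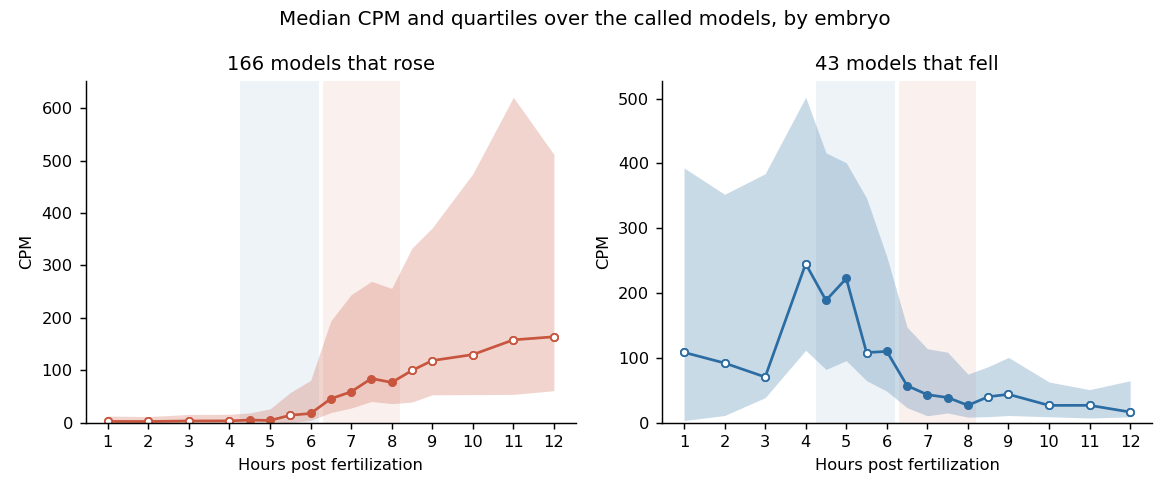
The median CPM of the 166 models that rose (left) and the 43 that fell (right) is drawn for the single embryos from 1 to 12 hpf, with the band from the first to the third quartile over models. Filled points and shaded spans are the 7 embryos of the comparison and open points are embryos outside it; the median of the risers went from 4.42 CPM at 5 hpf to 17.8 at 6 hpf and 45.9 at 6.5 hpf.

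The risers together took 1.41% of the counts at 4.5 hpf, 1.60% at 5 hpf and 2.22% at 6 hpf, and then 3.71%, 4.60%, 5.11% and 5.38% at 6.5, 7, 7.5 and 8 hpf. The fallers went from 1.53%, 1.66% and 0.935% to 0.486%, 0.400%, 0.363% and 0.251% at the same hours. These levels follow from how the models were chosen. The embryos before 4.5 and after 8 hpf were not used in that choice.

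Those embryos shared no library with the comparison. Of the risers, 156 could be tested between 1–4 hpf (4 embryos) and 8.5–10 hpf (3 embryos), 154 of them were higher later and 143 passed as risen, against 25.1% of all 4996 models tested there. None of them passed as fallen. Of the 43 fallers, 37 could be tested, 36 were lower later and 22 passed as fallen, against 14.4% of all models. The remaining 10 risers and 6 fallers did not pass the filter on low counts in those embryos. A positive fold change was seen in 51.7% of all models tested there.

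The risers' mean CPM at 1–4 hpf was under 1 CPM in 47 of 166 models, and at least as high as at 4.5–6 hpf in 50. Their levels went on to exceed 6.5–8 hpf at 8.5–10 hpf in 115 of 166 models. The median over the risers of the mean CPM was 3.47 at 1–4 hpf, 11.4 at 4.5–6 hpf, 70.8 at 6.5–8 hpf, 115 at 8.5–10 hpf and 166 at 11–12 hpf. The fallers had a median of 114 CPM at 1–4 hpf, 159 at 4.5–6 hpf, 47.8 at 6.5–8 hpf, 40.7 at 8.5–10 hpf and 21.2 at 11–12 hpf. None of the 43 was back above its level of 4.5–6 hpf at 8.5–10 hpf.

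A stricter description needs no fold change. No read was counted in any of the 3 earlier embryos and at least 1 in each of the 4 later ones for 73 models, and the reverse held for 32 models. Only 5 of the 73 and 0 of the 32 passed the filter on low counts, and those 5 rose. The 73 models were low, with a median of 4.97 CPM and a highest mean of 58.3 CPM at 6.5–8 hpf. Leaving out 1 embryo relaxes both conditions and gave 98–223 and 39–75 models. Of the 73, 40 also had no count in the 4 embryos at 1–4 hpf and 55 were counted in each of the 3 embryos at 8.5–10 hpf. Of the 32 models that were no longer counted, which had a median of 2.06 CPM in the earlier embryos, 9 had no count at 8.5–10 hpf either. A count of 0 over the 3 earlier embryos allows up to 1.20 CPM (3 counts of 2504534), and over the 4 later ones up to 1.04 CPM; these limits cover counting error only.

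Of the 209 models called, 5 carried an annotation in the lists used here, among 40 annotated models that were tested. Over all tested models 3.31% rose and 0.859% fell. All 5 rose, and each was low or near 0 until 5 hpf. A model nearly absent early, such as ML12524a or ML004919a, passed the filter on low counts only through its later level. Such a model could only be seen to rise.

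ML12524a, a colloblast candidate, encodes a cytochrome P450, a member of a large family of heme enzymes that oxidize small molecules. It had 0, 0 and 1.15 CPM at 4.5, 5 and 6 hpf and 6.48, 13.8, 39 and 23.1 CPM at 6.5, 7, 7.5 and 8 hpf. The groups did not overlap and the embryo at 7.5 hpf was the highest. It had been counted before, with 10.8 CPM at 4 hpf and 3.62 CPM on average at 1–4 hpf. The counts were 1 in the earlier and 61 in the later group, a ratio of 53.1 per library total (95% exact interval 9.18–2131, counting error only). The fitted log2 fold change was 5.40 ± 1.05 (SE, edgeR adjusted p = 0.0219), and without the embryo at 4.5 or 5 hpf the call was lost (edgeR adjusted p = 0.0958 and 0.118). In 5 more of the 16 alternatives the model did not pass the filter on low counts, namely with thinned counts, with the 5.5 hpf embryo added and without the embryo at 7, 7.5 or 8 hpf.

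ML004919a, a tentacle candidate, encodes a sulfotransferase, an enzyme that transfers sulfate to sugars, proteins or small molecules. It had 0, 0 and 2.29 CPM in the earlier embryos and 4.32, 25.6, 18.4 and 28.9 CPM in the later ones. The lowest later embryo was that at 6.5 hpf, still above 6 hpf. With 2 counts against 49 the ratio was 21.3 (95% exact interval 5.60–181, counting error only) and the log2 fold change was 4.52 ± 1.05 (SE, edgeR adjusted p = 0.0355). The call was lost without the embryo at 4.5 or 5 hpf (adjusted p = 0.149 and 0.159) and with limma voom (adjusted p = 0.0825), and the model was too low to be tested in the same 5 alternatives as ML12524a. It had been counted before, with 3.94 CPM on average at 1–4 hpf.

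ML148942a, a tentacle candidate, is annotated as a WW domain-binding protein 1-like model, in mammals a membrane protein with motifs that bind WW domains. It had 1.05, 1.47 and 4.59 CPM at 4.5, 5 and 6 hpf and 18.4, 9.85, 23.8 and 23.1 CPM from 6.5 to 8 hpf. The groups did not overlap. The log2 fold change was 3.11 ± 0.70 (SE, edgeR adjusted p = 0.0318), and the call was lost without the embryo at 4.5 or 5 hpf (adjusted p = 0.156 and 0.171), with limma voom (adjusted p = 0.0756) and with the embryo at 5.5 hpf added to the earlier group (adjusted p = 0.0793), which itself had 21.7 CPM from a shallow library. With thinned counts and without the embryo at 6.5, 7.5 or 8 hpf the model was too low to be tested.

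ML15049a matched cystatin-1, an inhibitor of cysteine proteases, in the study's search against venom proteins. It belongs to the toxin-like models expressed in C54, a cell type that the study proposed as a possible tentacle cell type. It had 8.39, 8.84 and 26.4 CPM in the earlier embryos and 85.3, 86.7, 64.9 and 44.3 CPM in the later ones. The embryos at 6.5 and 7 hpf were the highest and 8 hpf the lowest of the later group, still above 6 hpf. The mean rose from 14.5 ± 10.2 to 70.3 ± 20.0 CPM (SD, n = 3 and n = 4; log2 fold change 2.46 ± 0.48 SE, edgeR adjusted p = 0.0223). Without the embryo at 4.5 or 5 hpf the adjusted p was 0.0925 and 0.123.

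ML09434a, of the same C54 list, matched reticulocalbin and calumenin, calcium-binding proteins of the secretory pathway. It had 2.1, 2.95 and 4.59 CPM and then 20.5, 13.8, 40.1 and 55.8 CPM, so that the later embryos lay above all earlier ones and the highest was at 8 hpf. The log2 fold change was 3.50 ± 0.69 (SE, edgeR adjusted p = 0.0223). The call was lost with limma voom (adjusted p = 0.0856) and without the embryo at 4.5, 5 or 8 hpf (edgeR adjusted p = 0.097, 0.119 and 0.0595).

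In the embryos outside the comparison, each of these 5 models was higher at 8.5–10 hpf than at 1–4 hpf. Their means at 1–4 hpf were 0.451 to 7.59 CPM, so each passed the filter on low counts there through its later level. The log2 fold changes there were 3.78 for ML12524a, 2.61 for ML004919a, 7.07 for ML148942a, 4.10 for ML15049a and 5.04 for ML09434a, with edgeR adjusted p from 5.52e-05 to 0.00751.

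**Figure D3:**
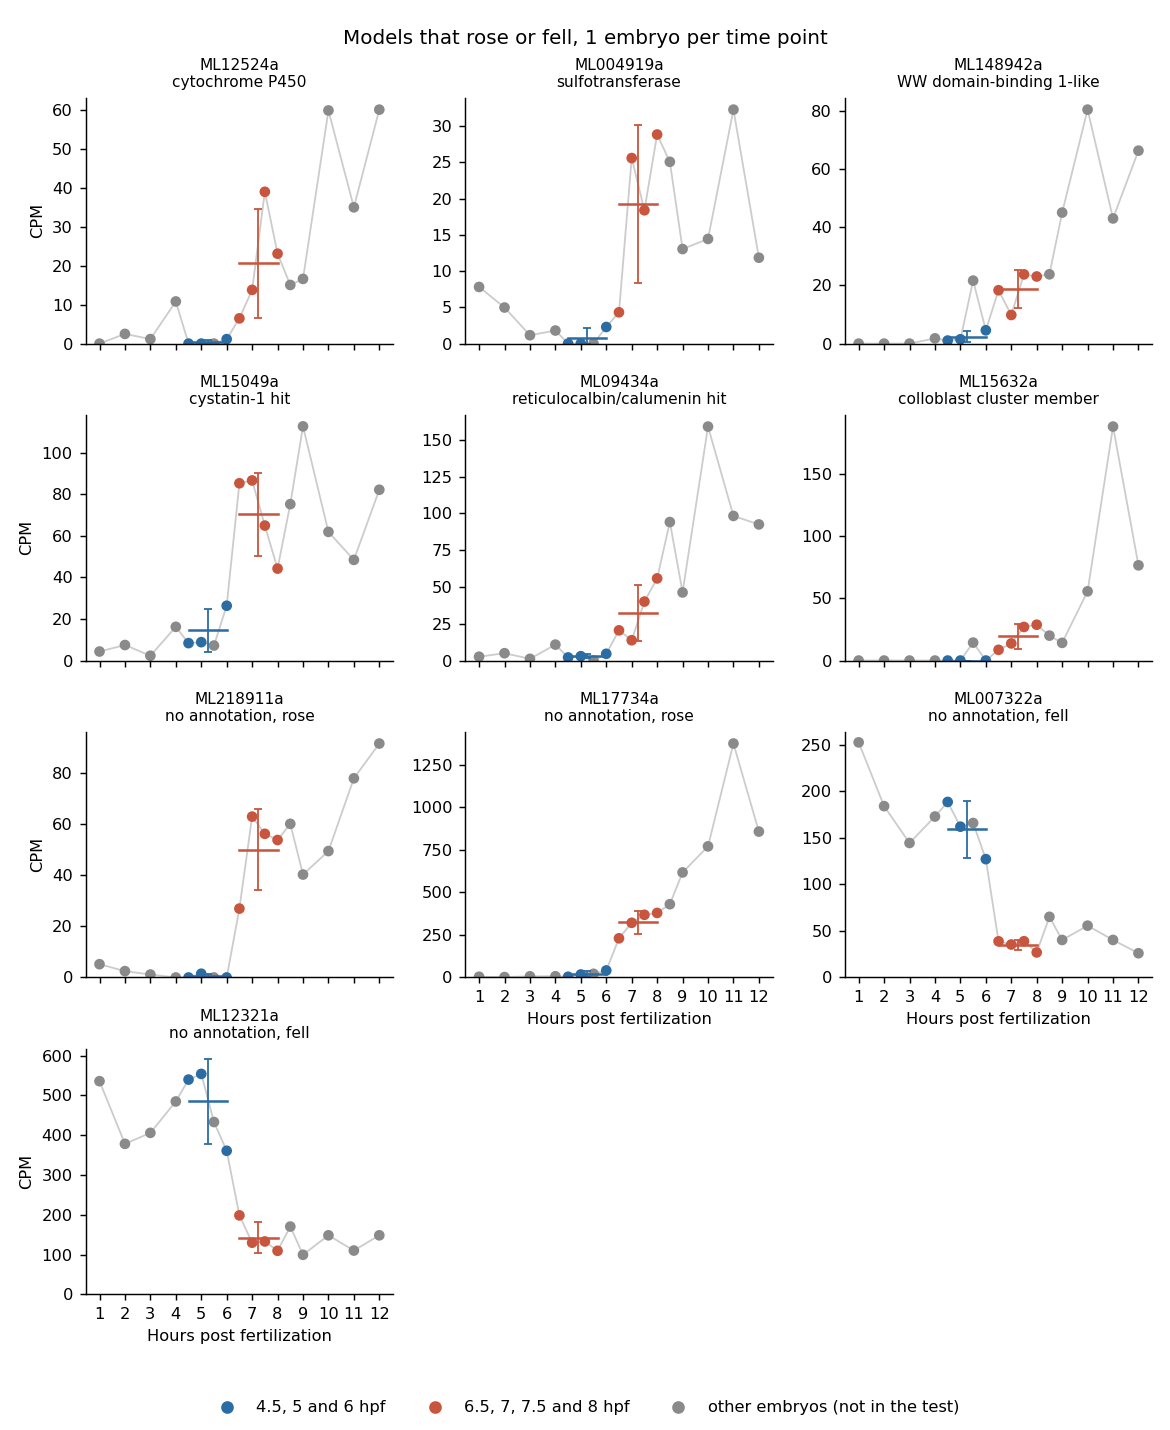
Each panel gives the CPM of 1 protein model in the single embryos from 1 to 12 hpf; blue points are the 3 earlier and red points the 4 later embryos of the comparison, with horizontal lines at the group means and error bars of 1 SD that are cut at 0, and grey points are embryos outside the test. In the 8 models that rose, every red point lies above every blue point, as in ML12524a with 6.48 to 39 CPM against 0 to 1.15, and in ML007322a and ML12321a every red point lies below.

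The models with the smallest p had no annotation. ML218911a had 0, 1.47 and 0 CPM at 4.5, 5 and 6 hpf and 27, 63.0, 56.3 and 53.9 CPM from 6.5 to 8 hpf. It had 1 count over the earlier and 137 over the later group (ratio 119, 95% exact interval 21–4744, counting error only; log2 fold change 6.64 ± 0.82 SE, edgeR adjusted p = 0.0086), and it passed in each of the 16 alternatives tried. ML17734a, with 4.19, 17.7 and 41.3 CPM and then 230, 321, 368 and 379 CPM, was higher in each embryo than in the one before it (log2 fold change 4.18 ± 0.55 SE, edgeR adjusted p = 0.0086; 0.0541 without the embryo at 5 hpf).

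Of the models that fell, ML007322a had 189, 162 and 127 CPM in the earlier embryos and 38.9, 35.5, 39 and 26.9 CPM in the later ones. The step lay between 6 and 6.5 hpf, and the later embryos were close to each other (means 159 ± 30.8 and 35.1 ± 5.66 CPM, SD, n = 3 and n = 4; log2 fold change −1.98 ± 0.31 SE, edgeR adjusted p = 0.0086; 0.0541 without the embryo at 5 hpf). ML12321a went from 540, 554 and 361 CPM to 199, 130, 133 and 110 CPM, again without overlap (log2 fold change −1.56 ± 0.28 SE, edgeR adjusted p = 0.0152; 0.0681, 0.0996 and 0.0576 without the embryo at 4.5, 5 and 8 hpf). Both were abundant from the first hours, with mean levels of 189 and 451 CPM at 1–4 hpf.

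Some called models had neighbouring identifiers. Of the 20 tested models whose identifiers start with ML0857, 7 rose, against 3.31% of all tested models. The log2 fold changes of the 7 lay between 3.22 and 3.64. Their mean levels went from 14.8–46.3 CPM at 4.5–6 hpf to 153–452 CPM at 6.5–8 hpf. Together these 7 models took 0.0064%, 0.0144% and 0.0494% of the counts at 4.5, 5 and 6 hpf, 0.161%, 0.254%, 0.234% and 0.241% from 6.5 to 8 hpf and 1.20% at 11 hpf. Each later embryo was above each earlier one in this sum, which follows from summing only models that rose. The group was picked after its values were seen, the sources used here give it no annotation, and reads shared between near-identical models cannot be told apart.

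Of the colloblast candidates used here, 123 of 161 had a count in the 7 embryos and 22 passed the filter on low counts. Of these 22, 1 rose, 0 fell and 21 did not pass, against 3.31% risen and 0.859% fallen over all models tested. The median log2 fold change of the 22 was 0.89. Of the 144 tentacle candidates, 90 had a count, 20 were tested, 2 rose and 0 fell, and the median was 0.54. At an unadjusted edgeR p under 0.05, 8 colloblast and 4 tentacle candidates were higher later, against 12.9% of all tested models, and 2 and 0 were lower, against 8.87%. With DESeq2 6 of 46 colloblast and 4 of 28 tentacle candidates tested rose, against 4.86% of 6628 models, and 1 and 0 fell, against 1.67%. The study's clusters name 7 more colloblast and 3 more tentacle candidates that are not in these lists. Of the 7, 2 were tested and 1 rose, ML15632a, so that 2 of 24 tested colloblast candidates rose with them included, and 0 of the 3 were tested. The low-count filter sets which members are in these counts, since a candidate that was absent early entered only through its later level, so the counts describe those members and not the lists.

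Over the 161 and 144 members used here, whether tested or not, the lists' summed levels did not separate the groups. Colloblast candidates summed to 1284, 1291 and 1260 CPM at 4.5, 5 and 6 hpf and to 1137, 1456, 1413 and 1360 CPM from 6.5 to 8 hpf. Tentacle candidates summed to 979, 1005 and 1256 CPM and then to 1036, 1040, 1097 and 1104 CPM. The later embryos lay on both sides of the earlier ones in the first list and within their range in the second. With the members named only in the clusters added, the sums were 1271–1294 and 1170–1525 CPM for 168 colloblast and 979–1256 and 1040–1108 CPM for 147 tentacle candidates, again with overlap. More members were seen later, 115 against 95 of the colloblast and 81 against 65 of the tentacle candidates, from 4 embryos against 3.

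**Figure D4:**
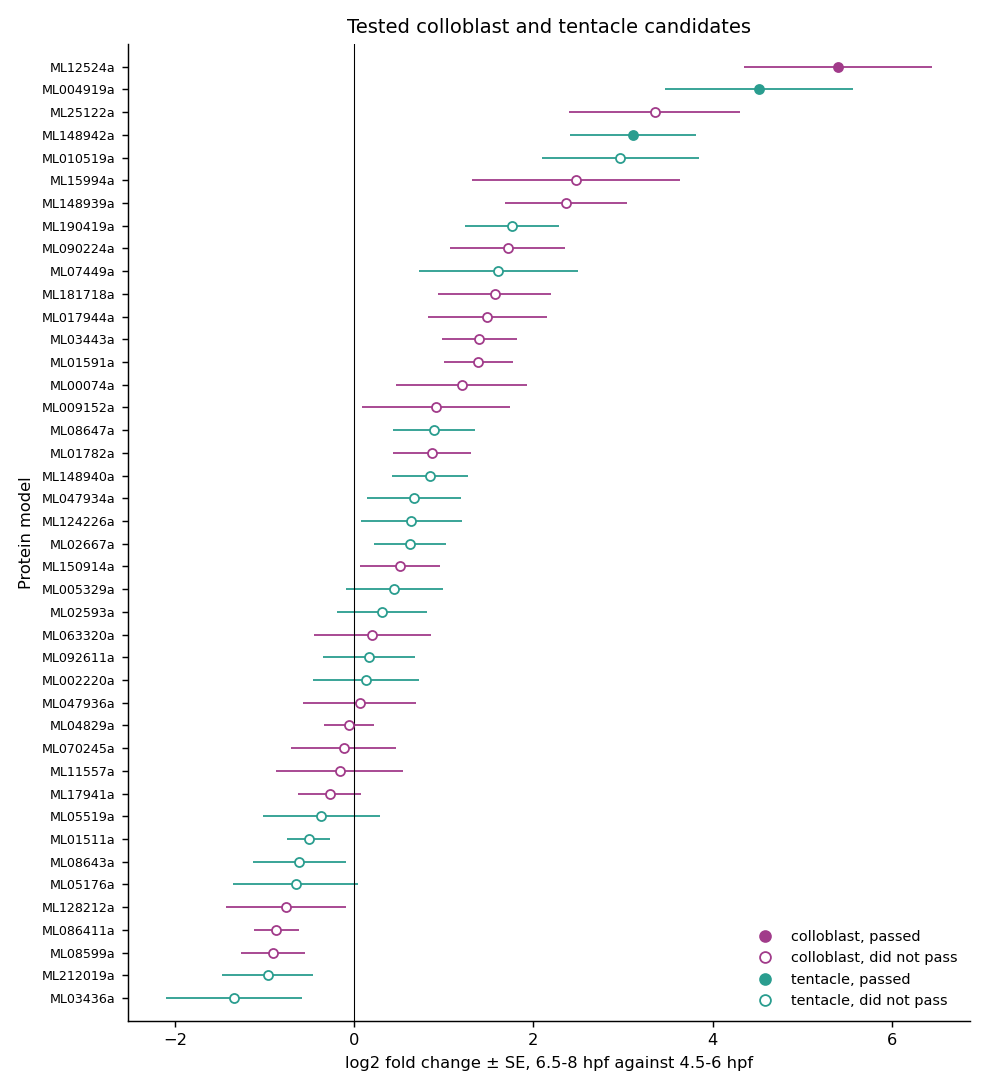
The log2 fold change of 6.5–8 hpf against 4.5–6 hpf with its standard error is given for the 22 tested colloblast (magenta) and the 20 tested tentacle candidates (teal) with an InterProScan result, ordered by size. Filled points passed at an adjusted p under 0.05: ML12524a (5.40), ML004919a (4.52) and ML148942a (3.11). Of the 42 estimates, 29 were above 0, against 2534 of the 5008 tested models. The filter on low counts set which candidates are shown.

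The sums differed by role. The 54 enzymes among the candidates summed to 65.0, 115 and 159 CPM in the earlier and to 216, 282, 338 and 279 CPM in the later embryos, without overlap. The 42 receptors and signalling proteins summed to 613, 613 and 671 CPM and then to 489, 463, 520 and 452 CPM. Their sums did not overlap either, but this rested on 1 model, the EF-hand protein ML01511a described below, which did not pass the test. The other 41 members summed to 170, 181 and 313 CPM and then to 233, 197, 288 and 204 CPM, with overlap. Of the 42, 7 were tested with edgeR and 0 passed (1 at an unadjusted p under 0.05, the tetraspanin ML010519a). The 62 extracellular proteins overlapped between the groups with 100–210 and 128–221 CPM, and the 28 channels and transporters with 0–16.8 and 14.0–77.0 CPM.

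Of the enzymes, 6 of 54 were tested and 2 rose, both described above, against 3.31% of all tested models. Both passed the filter on low counts only through their later levels and could only be seen to rise. The count therefore describes these 2 models and not the enzymes. The 5 cytochrome P450 models summed to 2.1, 1.47 and 3.44 CPM and then to 14.0, 29.5, 68.2 and 32.7 CPM. Besides ML12524a most of this sum came from ML049021a, which did not pass the filter on low counts and was chosen after its values were seen; it had 2.1, 1.47 and 1.15 CPM and then 6.48, 15.8, 28.1 and 9.62 CPM. The P450 model ML04064a had 1 count in each of the embryos at 6, 6.5 and 7.5 hpf, and the other members had none. For ML12524a and ML049021a the embryo at 7.5 hpf was the highest of the 7. Before the comparison, at 4 hpf, they had 10.8 and 12.6 CPM, so neither was first counted in the later group.

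The 12 sulfotransferases summed to 7.34, 2.95 and 18.3 CPM in the earlier and 18.4, 55.2, 54.1 and 73.1 CPM in the later embryos. ML074410a, named after its values were seen, had no count in the 3 earlier embryos, the 4 embryos at 1–4 hpf or the one at 5.5 hpf. It then had 3.24, 3.94, 13.0 and 15.4 CPM from 6.5 to 8 hpf and a mean of 23.5 CPM at 8.5–10 hpf. Against a floor of 3 counts over the earlier group it was at least 7.25-fold higher. ML07449a, whose range in the later embryos was 1.08–25.6 CPM, did not pass (log2 fold change 1.61 ± 0.88 SE, edgeR adjusted p = 0.319).

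Carbonic anhydrases interconvert carbon dioxide and bicarbonate. ML01591a, a colloblast candidate of this family named after its values were seen, had 24.1, 48.6 and 77.9 CPM and then 94.0, 122, 121 and 112 CPM. The values climbed within the earlier group and were level from 7 hpf on. The groups did not overlap, but the model did not pass (log2 fold change 1.39 ± 0.39 SE, edgeR adjusted p = 0.065). The other carbonic anhydrase, ML009152a, overlapped between the groups (log2 fold change 0.91 ± 0.82 SE, edgeR adjusted p = 0.563).

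Among the extracellular proteins, 3 of 62 were tested and 0 passed the adjusted threshold (1 at an unadjusted edgeR p under 0.05). The 17 models with sushi domains, repeats found in complement and adhesion proteins, summed to 22, 8.84 and 34.4 CPM in the earlier and 45.4, 55.2, 66.0 and 75.0 CPM in the later embryos, without overlap. This family was picked after its values were seen, and no other extracellular family was separated between the groups. The 29 immunoglobulin-like models took 0.0087–0.0171% of the counts in the earlier and 0.0059–0.0144% in the later embryos. Of the sushi models ML090224a was tested, with 12.6, 2.95 and 3.44 CPM and then 20.5, 19.7, 14.1 and 23.1 CPM (log2 fold change 1.72 ± 0.64 SE, edgeR adjusted p = 0.145).

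Of the 9 models with hits to adhesive proteins 0 were tested, because their counts were too low. The 3 with the highest mean were ML50011a with EGF-like domains, ML32223a which carries the type D domain of von Willebrand factor, and ML223525a, a mucin-like model with the same domain. ML50011a had 19 counts in the earlier and 11 in the later group, ML32223a had 1 and 9, and ML223525a had 2 and 4. All 3 overlapped between the groups. For ML32223a the count ratio was 7.83 (95% exact interval 1.09–343, counting error only), with 0, 0 and 1.15 CPM and then 3.24, 1.97, 0 and 9.62 CPM, so that its highest later embryo stood beside one with no count. Outside the comparison its mean was 8.69 CPM at 1–4 hpf and 1.19 CPM at 8.5–10 hpf, so the ratio does not describe a lasting rise. For ML223525a the ratio was 1.74 (95% exact interval 0.25–19.2, counting error only), and a difference was not detectable at this depth.

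The models with toxin hits were led by ML01511a, an EF-hand model that is also annotated with poly(A) polymerase domains. Its toxin hit was calglandulin, a calcium-binding venom gland protein, but in the study's search ML01511a matched calmodulin, which is not a toxin, better. It had 444, 432 and 358 CPM in the earlier embryos and 256, 266, 232 and 248 CPM in the later ones. The groups did not overlap, yet the model did not pass (log2 fold change −0.51 ± 0.24 SE, edgeR adjusted p = 0.233). The smaller EF-hand model ML273210a, too low to be tested, had 1.05, 0 and 4.59 CPM and then 11.9, 7.88, 11.9 and 9.62 CPM, and ML01571a had 1 count in the earlier and 15 in the later group, 10 of which came from the embryo at 7 hpf. Of the 13 toxin-like models of C54, 6 were tested, 2 rose (ML15049a and ML09434a) and 0 fell, against 3.31% and 0.859% of all tested models. Both risers passed the filter on low counts through their later levels, so these counts describe those members and not the list.

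The study grouped candidates with like courses over the whole time series, so the members of its clusters were chosen partly on these embryos and their rise is no separate evidence. The 27 members of the larger colloblast cluster summed to 54.5, 53.1 and 99.7 CPM and then to 147, 164, 325 and 237 CPM, and the 18 members of the larger tentacle cluster to 10.5, 8.84 and 40.1 CPM and then to 98.3, 82.7, 172 and 169 CPM. In both sums the embryo at 6 hpf was the highest of the earlier group and below all later embryos. Of the first cluster 5 members were tested and 2 rose, ML12524a and ML15632a, against 3.31% of all tested models; both had at most 1 count early and passed the filter on low counts through their later levels. ML15632a, with no domain in the list used here, had no count in the 3 earlier embryos and 8.64, 13.8, 27.1 and 28.9 CPM in the later ones, at least 16.0-fold above the floor of 3 counts over the earlier group (edgeR adjusted p = 0.0167; 0.065 and 0.0686 without the embryo at 4.5 and 5 hpf, and too low to be tested with thinned counts or without 7, 7.5 or 8 hpf).

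The 5 transcription factors did not move together, and 0 of the 3 that could be tested passed at an adjusted p under 0.05 (1, MlNR1, at an unadjusted edgeR p under 0.05). They are expressed around the presumptive tentacle epithelium or apical organ of the embryo or were found in the candidate lists and cell types of the study. In bulk embryos a change in the number of cells and a change in RNA per cell cannot be told apart.

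MlNR1 (ML073417a), a nuclear receptor of the ligand-regulated family, was the most abundant of the annotated models. It had 467, 613 and 641 CPM at 4.5, 5 and 6 hpf and 266, 254, 362 and 223 CPM from 6.5 to 8 hpf. The groups did not overlap and the step lay between 6 and 6.5 hpf. The log2 fold change of −0.84 ± 0.24 (SE, edgeR adjusted p = 0.0686) did not pass, while 4 of 16 alternatives did, among them DESeq2 (adjusted p = 0.0184) and scaling by library total alone (edgeR adjusted p = 0.0439). In the other embryos it went from a mean of 848 CPM at 1–4 hpf to 195 CPM at 8.5–10 hpf (log2 fold change −1.57 ± 0.23 SE, edgeR adjusted p = 0.000223).

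MlPRD10a (ML148940a), a paired class homeobox gene and a tentacle candidate, was already at the level of the later group at 6 hpf. It had 51.4, 42.7 and 157 CPM at 4.5, 5 and 6 hpf and 154, 138, 123 and 106 CPM from 6.5 to 8 hpf. The embryos at 6 and 6.5 hpf were the highest of the 7, and the levels after them were lower from embryo to embryo. The log2 fold change between the groups was 0.85 ± 0.42 (SE, edgeR adjusted p = 0.268); without the embryo at 6 hpf it was 1.63 and passed (edgeR adjusted p = 0.0104). The 5.5 hpf embryo had 50.5 CPM, close to those before it.

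MlPRD10a and the riser ML148942a have close identifiers, as does ML148939a, a colloblast candidate without a domain that was picked out after its values were seen. ML148939a had 2.1, 2.95 and 4.59 CPM and then 20.5, 19.7, 6.49 and 13.5 CPM, without overlap (log2 fold change 2.36 ± 0.68 SE, edgeR adjusted p = 0.0712).

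MlBsh (ML08269a), a homeobox gene, had 13.6, 23.6 and 21.8 CPM and then 27, 13.8, 19.5 and 28.9 CPM. The groups overlapped (log2 fold change 0.41 ± 0.48 SE, edgeR adjusted p = 0.657). MlIslet (ML053012a), a LIM homeobox gene, had 3 counts in the earlier and 10 in the later group, with none at 5, 6.5 and 8 hpf. MlNR2 (ML305522a), a nuclear receptor among the colloblast candidates, had 3 and 1 counts. For MlIslet and MlNR2 a difference was not detectable at this depth.

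**Figure D5:**
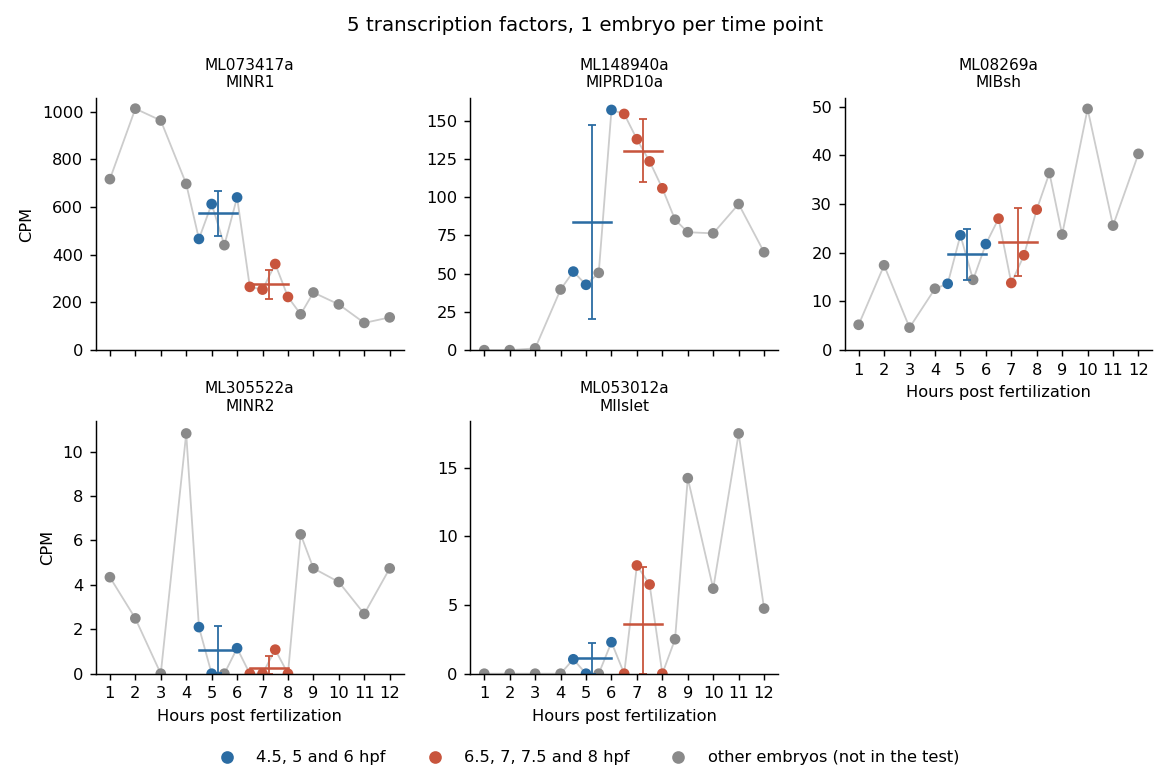
The CPM of 5 transcription factors is plotted for the single embryos from 1 to 12 hpf; blue and red points are the earlier and later embryos of the comparison with group means and error bars of 1 SD cut at 0, and grey points are other embryos. MlNR1 drops from 641 CPM at 6 hpf to 266 CPM at 6.5 hpf, while MlPRD10a is at 42.7 CPM at 5 hpf and 157 CPM at 6 hpf.

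The third of the most abundant annotated models, beside MlNR1 and ML01511a, was ML086411a, a colloblast candidate annotated as the beta subunit of glucosidase II, which trims sugars from new glycoproteins in the endoplasmic reticulum. It had 519, 435 and 346 CPM and then 200, 219, 221 and 189 CPM. It was lower in each later embryo than in any earlier one (log2 fold change −0.87 ± 0.25 SE, edgeR adjusted p = 0.0712) but passed in 5 of 16 alternatives only. At 8.5–10 hpf it did not pass against 1–4 hpf (log2 fold change −0.11 ± 0.21 SE, edgeR adjusted p = 0.711), with means of 222 and 352 CPM. MlNR1, ML01511a and ML086411a thus lay entirely below their earlier levels, as did 15.3% of all tested models, and 0 of the 3 passed with edgeR (MlNR1 and ML086411a at an unadjusted p under 0.05 and with DESeq2, adjusted p = 0.0184 and 0.026).

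Tetraspanins are membrane proteins with 4 membrane-spanning segments. ML010519a, a tentacle candidate of this family named after its values were seen, had 1.05, 1.47 and 20.6 CPM and then 41.0, 11.8, 101 and 59.6 CPM. The embryo at 7 hpf lay below that at 6 hpf, so the groups overlapped (log2 fold change 2.97 ± 0.88 SE, edgeR adjusted p = 0.0771). The tetraspanins ML02593a (0.31 ± 0.51) and ML047936a (0.06 ± 0.63) had log2 fold changes within 1 SE of 0.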

How the data were processed

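The deposited values are raw whole-number counts per protein model, as the authors obtained them from HTSeq. According to the submitters' processing notes, base calling used CASAVA 1.8, alignment Bowtie2 2.1.0 and counting HTSeq 0.5.4p3. The genome build was not given in the sources used here, nor were the counting options (strand among them) or the handling of molecular identifiers, so near-identical or overlapping models are uncertain. The 5 rows of HTSeq classes were left out of totals. Of the reads, 45.8–48.2% were not aligned, 3.66–4.54% were ambiguous and 15.6–16.9% had an alignment quality too low to be counted.

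The 7 embryos held 507616–953736 counts. Counts were divided by an embryo's total to give CPM, with no correction for length. Groups were tested with edgeR 4.0.16 (TMM factors, filterByExpr, quasi-likelihood F-test) and Benjamini-Hochberg adjusted p under 0.05 over all 5008 models, in R 4.3.3 with limma 3.58.1 and DESeq2 1.42.0; 1 value per embryo was compared by an exact two-sided permutation test over 35 splits in scipy 1.17.1. Floors are 3 counts over a group, and intervals of count ratios are 95% Clopper-Pearson intervals. The scripts were tested on simulated counts for 3 against 4 embryos. The edgeR test recovered 1 of 48 tested changes of 2-fold, 32 of 49 of 4-fold, 45 of 48 of 8-fold and 50 of 50 of 16-fold. A model that did not pass may therefore still have changed about 2-fold.

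The groups, the lists and the tests were chosen with earlier results of these data known. The lists were the study's candidates with an InterProScan result (161 colloblast and 144 tentacle candidates), families and roles built from their domains, its clusters, its adhesive and toxin hits and 5 transcription factors. The models named were the annotated ones that passed, the 5 factors, the 3 most abundant models of the adhesive and toxin lists and of all annotated models, and, without annotation, the 2 risen and 2 fallen models with the smallest p. Any other model or family described was picked with its values in view, also where this is not marked. No identifier matched the reference table of gene names (0 of 16548). Alternatives were other scalings, tools, filters and depths, a trend over hours, a spread shared with the embryos from 1 to 12 hpf, adding the 5.5 hpf embryo, a 2-fold minimum and leaving out each embryo.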

Additional observations from a re-analysis of the deposited data

Results flagged for a closer look

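In the 4 later embryos 24 sets of values were examined for 1 embryo far from the rest, of which chance sets apart about 1 in 20, and 2 were. MlNR2 (ML305522a) had its only count of the later group at 7.5 hpf, where 1.08 CPM stood against 0 in the other 3 embryos (gap over range 1), and a single read sets this value. The share of ambiguous reads was 4.54% at 7 hpf against at most 4.24% in the other 3 later embryos (gap over range 0.847). The class of ambiguous reads, which enters no expression value, was on average 0.529 percentage points higher at 6.5–8 hpf than at 4.5–6 hpf. The reads of this class carry no model name, so its part in the changes of single models was not tested.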

How the results depend on the processing

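The main counts were 166 risen and 43 fallen models. More models were called with DESeq2 (322 risen, 111 fallen), with no filter beyond 1 count (456 and 176), with a linear trend over hours (429 and 278) and with a spread shared over 1–12 hpf (310 and 102). Scaling by library size alone gave 108 and 89. These settings called 164, 161, 155, 155 and 108 of the main risers. RLE factors (177 and 48), limma voom (127 and 33), thinned counts (120 and 29), the 5.5 hpf embryo added (150 and 45) and a 2-fold minimum (162 and 43) stayed within 1.5 times. Leaving out 1 embryo gave 2 to 486 risen and 0 to 216 fallen models, with 2 and 0 without 5 hpf and 486 and 216 without 6 hpf. Models first counted later numbered 85 after thinning and 98 to 223 without 1 embryo, and models no longer counted 26 and 39 to 75. The 14 named models tested under 16 alternatives gave 224 cases. In the 210 that could be fitted none turned the direction, 10 gained a call and 20 lost one; in the other 14 the call was also lost, since ML12524a, ML004919a or ML148942a was too low to be tested. The number of colloblast candidates that rose lay between 0 and 8 and of tentacle candidates between 0 and 6. The embryo at 5.5 hpf was too shallow to fill the gap before 6 hpf. No paired analysis was possible because the groups share no replicate number in the labels and each time point holds 1 embryo.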

Other observations

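Within the later group, the values of the annotated risers did not follow 1 order. ML15049a was lowest at 8 hpf (44.3 CPM) and ML09434a highest at that hour (55.8 CPM), while ML12524a was highest at 7.5 hpf (39 CPM). In the embryos after 8 hpf, ML09434a had a mean of 99.8 CPM at 8.5–10 hpf and ML15049a a mean of 83.3 CPM, both above their means of 32.5 and 70.3 CPM at 6.5–8 hpf, and ML004919a had 17.5 CPM against 19.3 CPM.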
